A study of Schmidtea mediterranea with 32 samples.

Results

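Whole planarians of the sexual biotype were compared after 8 feedings under RNAi against nhr-1 or under a control RNAi that the labels call UNC. The comparison holds 8 of the 32 libraries of the series, 4 for the knock-down and 4 for the control, chosen by the number of feedings and the RNAi in their labels. The remaining libraries are the same pair of treatments at 4, 6 and 11 feedings and a single control at 7 feedings, and except for the last they entered the same fit, where they share in the filter and the estimate of the spread. They also serve to set the 8-feeding result against earlier and later animals. All groups share the species Schmidtea mediterranea, the biotype labelled Sexual S2F2, whole-animal RNA and poly(A) selection. The labels do not say what UNC stands for, how many animals went into a library, or whether the replicates, named 1, s1, s2 and s3 in both groups, came from separate cultures, so p-values measure the spread between these libraries, which may be technical. RNAi lowers the RNA of its target, so the knock-down keeps an unknown part of nhr-1 activity. The files give no gene names, and the level of nhr-1 and of tissue markers was not analysed here.

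As background, nuclear hormone receptors are transcription factors, many of which are switched by small lipophilic ligands. Sexual planarians are cross-fertilizing hermaphrodites with testes, ovaries, yolk glands and a copulatory apparatus, whereas the asexual biotype of the species divides by fission and lacks a mature reproductive system. nhr-1 is known in this species as a receptor needed to form and keep the reproductive system. The reproductive organs of a planarian are built from stem cells and shrink or regrow with its nutritional state, so the number of feedings is part of the design.

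Counts were read on contigs, the assembled transcripts of a reference set. Those with the prefix SmedSXL were used, because many transcripts were also counted on a second set with the prefix SmedASXL. The prefixes are read here as a sexual and an asexual assembly, an inference from the names. The 8 libraries held 5.89 to 9.11 M counts on SmedSXL contigs. Levels are given as CPM, the usual measure of counts relative to library size, here after TMM scaling. The TMM factors lay between 0.981 and 1.22 in these libraries and between 0.434 and 1.27 over the 31 libraries of the fit. CPM is not divided by length, so an order of contigs by CPM is an order by counts. The most abundant contig took 6.77% to 15.3% of the counts in the 8 libraries and up to 47.5% over the 31. Values at other numbers of feedings therefore rest on a less even set of libraries. Across the tested contigs the log2 CPM values of 2 knock-down libraries correlated at r = 0.976 to 0.981 (6 pairs), those of 2 control libraries at 0.937 to 0.975 (6 pairs), and those of a knock-down and a control library at 0.836 to 0.912 (16 pairs). These correlations run across contigs, which are not independent replicates.

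After 8 feedings nhr-1 RNAi was accompanied by a loss of transcripts far more often than by a gain. Of 23754 tested contigs, 3594 (15.1%) fell and 186 (0.783%) rose, where a call needed an adjusted p under 0.05 (edgeR quasi-likelihood, Benjamini-Hochberg). In all 15.9% of the contigs were called. The median fallen contig stood 4.92-fold lower, at a log2 fold change of -2.30, and the median risen contig 1.97-fold higher, at 0.98. The median over all tested contigs was 0.09. In whole-animal RNA, fewer cells of a type and less RNA per cell cannot be told apart. The 4 knock-down libraries lay below all 4 controls for 3459 of the 3594 fallen contigs, where 18.9% of all tested contigs did so. They lay above all controls for 155 of the 186 risen contigs, where 10.7% of all tested contigs did so. DESeq2, which scales the libraries differently, called 3508 lower and 818 higher contigs, so the number of rises, unlike that of falls, depended on the method. Before adjustment 21.8% of the contigs had p under 0.05.

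**Figure D1:**
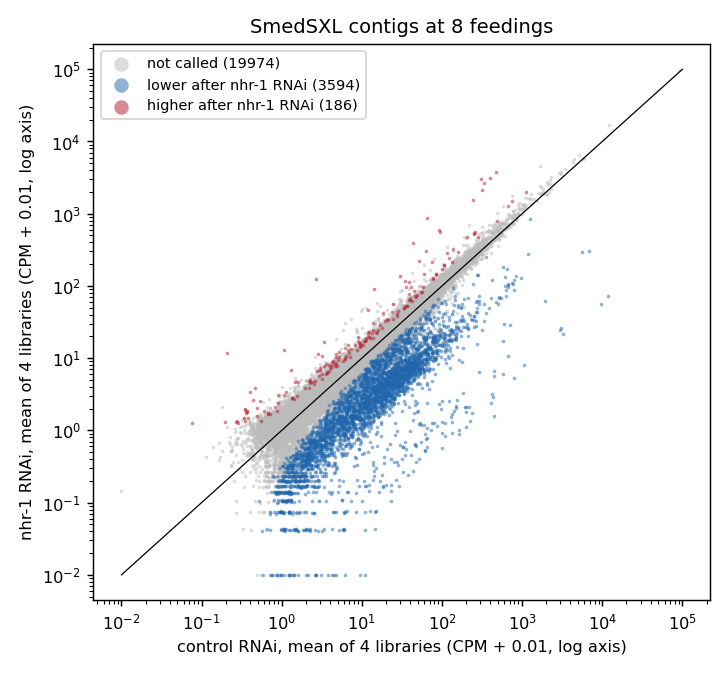
Mean CPM of each tested SmedSXL contig in the 4 control libraries (horizontal, log axis) and the 4 knock-down libraries at 8 feedings (vertical, log axis), with 0.01 added to each mean and the line marking equal levels. The 3594 fallen contigs lie below the line in a broad band with a sparser cloud beneath it, and the 186 risen contigs lie close above it.

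The fallen contigs covered a wide range of sizes, and whether these form separate groups was not tested. A band of 2276 contigs, 63.3% of those that fell, lay between log2 fold changes of -3 and -1.5. Beyond it 513 contigs fell 8- to 32-fold, followed by a tail in which 181 contigs were fitted as at least 32-fold lower. A set of 30 fallen contigs had no counts in any knock-down library, and with these set to the bound that 3 counts over the group allow, 159 contigs were at least 32-fold lower. At the other end, 235 contigs fell by less than 2-fold. The contigs of the tail were shorter, with a median length of 546 bases, against 1010 bases for contigs that fell 4- to 8-fold and 1145 bases for all tested contigs. The tail had a median control level of 18.6 CPM and a median knock-down level of 0.226 CPM, and the contigs that fell 4- to 8-fold had medians of 15.4 and 2.77 CPM. Since the sizes were used to form these classes, their differences in fold are a description.

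**Figure D2:**
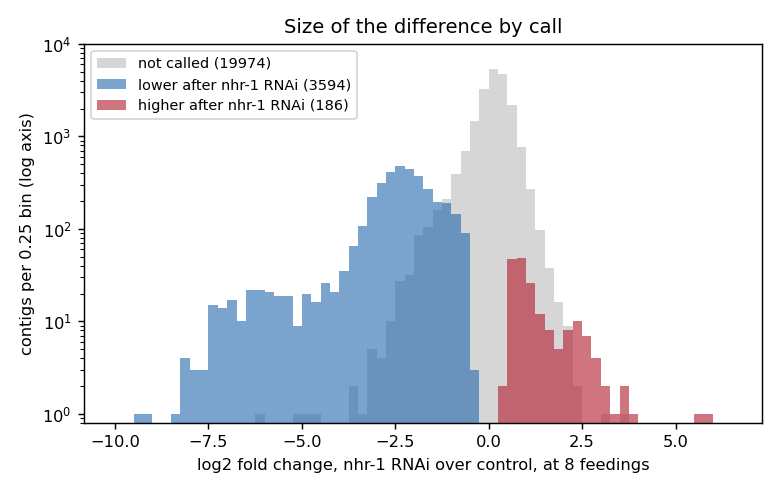
Number of contigs per 0.25 step of log2 fold change (log vertical axis) among contigs that fell, rose or were not called at 8 feedings. The fallen contigs peak near their median of -2.30 and continue as a low shelf beyond -5, whereas the risen contigs peak just under 1.

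The fallen contigs carried a sizeable part of the control transcriptome. They held 18.7% of the SmedSXL counts in control replicate 1, 15.8% in s1, 21.2% in s2 and 15.6% in s3, a mean of 17.8% ± 2.65 (SD, n = 4). In the knock-down the same contigs held 2.69%, 2.20%, 3.17% and 3.08% in replicates 1, s1, s2 and s3, a mean of 2.78% ± 0.442 (SD, n = 4). The groups lay far apart, and each knock-down library kept a similar remainder. These shares describe contigs that were chosen on the same libraries. The 10 contigs with the most counts among the 3594 made up 28.9% of their counts in the controls and the 100 with the most 50.9%.

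A group of 11 fallen contigs averaged at least 1000 CPM in the controls, a cut set after the values were seen. Together they stood at 13523 CPM in control replicate 1, 73188 in s1, 70769 in s2 and 36203 in s3. The knock-down libraries held 1942, 1613, 1682 and 2697 CPM in the same order. All controls exceeded all knock-down libraries, and control replicate 1 stood well under the other controls. It was the lowest control for 9 of the 11 contigs. Of the 11, 8 were already called lower at 4 feedings, where 0.375% of all tested contigs were, 9 at 6 feedings (13.3% of all) and 10 at 11 feedings (23.4% of all).

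The contig that lost the most CPM was SmedSXL_014674, a sequence of 715 bases. It stood at 1356 CPM in control replicate 1, 19163 in s1, 18694 in s2 and 7492 in s3. In the knock-down it stood at 74.1, 15.3, 20.02 and 180 CPM in the same order of replicates. All controls lay above all knock-down libraries, and both groups varied widely within themselves. The means were 11676 ± 8743 (SD, n = 4) and 72.4 ± 76.6 CPM (SD, n = 4), and the log2 fold change of SmedSXL_014674 was -7.33 (SE 1.25, edgeR adjusted p = 6.1e-05). Its level in the controls varied between the numbers of feedings as well, with group means of 5264 ± 7634 CPM at 4 (SD, n = 4), 747 ± 152 at 6 (SD, n = 3) and 15510 ± 11230 at 11 feedings (SD, n = 4). The knock-down means of this contig stayed between 36.5 and 96.5 CPM at all 4 time points. Over the 31 libraries 78 other contigs followed SmedSXL_014674 at r above 0.9 in log2 CPM, 6 of them at r above 0.99, and its reads may be divided among near copies. All 78 were among those that fell at 8 feedings, where 15.1% of all tested contigs did so. The correlation included the libraries at 8 feedings, so this outcome was largely set by the choice of contigs. The fall of SmedSXL_014674 was not shown to differ between 8 and 4 feedings (difference -1.56, edgeR adjusted p = 0.9504).

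The largest fitted fall among contigs with a mean of at least 5 CPM was that of SmedSXL_012943, 1785 bases long. It had 81, 59, 124 and 73 counts in control replicates 1, s1, s2 and s3, which correspond to 11.5, 6.65, 15.8 and 10.04 CPM, and 0 counts in all 4 knock-down libraries. With 3 counts over the knock-down group as the floor, SmedSXL_012943 was at least 114-fold lower (edgeR adjusted p = 4.29e-07). The knock-down groups held 1 count in all at 4 feedings, 3 at 6 and 2 at 11, against 59, 148 and 118 in the controls, and the contig was called lower at each of them (edgeR adjusted p = 0.0105, 2.83e-05 and 1.00e-05). Falls to 0 counts were met in 30 called contigs. Their control counts summed over 4 libraries ran from 18 to 337 with a median of 45, which gives bounds from at least 6.09-fold to at least 114-fold lower. All 30 were called lower at 11 feedings too (23.4% of all tested contigs were), 15 at 6 (13.3% of all) and 4 at 4 feedings (0.375% of all). The reverse pattern, 0 counts in every control and at least 3 in every knock-down library, was met in 0 contigs of the whole SmedSXL set, whereas 37 had 0 in every knock-down and at least 3 in every control library.

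**Figure D3:**
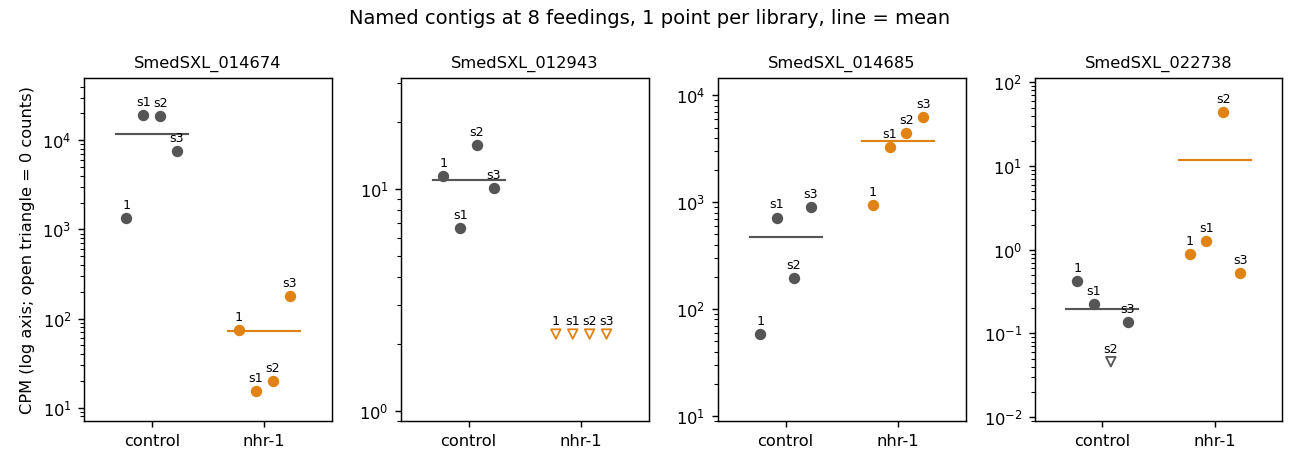
CPM of the 4 named contigs in each library at 8 feedings (log axis, 1 point per library labelled with its replicate name, horizontal line at the group mean, open triangle for 0 counts, drawn at an arbitrary height below the lowest value). Both fallen contigs have all knock-down libraries below all controls, and the rise of SmedSXL_022738 rests mainly on replicate s2 at 43.9 CPM.

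The number of contigs detected did not differ between the groups beyond their spread. With each library thinned to 5892656 counts, the depth of the shallowest, 59128, 55866, 56792 and 56309 contigs had at least 1 count in knock-down replicates 1, s1, s2 and s3. In the controls 58288, 47845, 57998 and 56099 contigs did. The groups overlap, and control s1 stands apart as the lowest. The means of 57024 ± 1453 (SD, n = 4) and 55058 ± 4905 (SD, n = 4) differed by less than the spread (two-sided exact permutation p = 0.686, where the smallest p of the design is 0.0286). Without control replicate s1 the difference changed sign to -438 contigs (exact permutation p = 0.657, n = 4 and 3). Most fallen contigs were still counted, since between 3.64% and 6.71% of the 3594 had 0 counts in a given knock-down library, compared with at most 0.0835% in a control. The concentration of counts on the leading contigs did not differ beyond the spread either. The 10 contigs with the most counts in each library took 17.9% ± 0.733 in the knock-down and 17.6% ± 5.23 in the controls (SD, n = 4 each, exact permutation p = 0.8286), and the 100 with the most 33.2% ± 1.42 and 31.3% ± 6.06 (exact permutation p = 0.571, n = 4 each). Both p-values were 0.8286 after Benjamini-Hochberg adjustment over the pair. The shares varied less among the knock-down libraries, a difference in spread that was not tested.

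Contigs with a middling mean level over the 31 libraries fell most often. Ranked by mean log2 CPM over the 31 libraries and divided into 4 classes of equal size, 11.0% of the lowest class fell, 18.6% of the second, 21.4% of the third and 9.56% of the highest, against 15.1% of all. The ranking includes the knock-down libraries, so a fall itself can move a contig into a lower class. In the controls at 8 feedings the fallen contigs had a median level of 13.2 CPM, against 7.83 CPM for all tested contigs. Among the fallen contigs the class medians of the log2 fold change were -2.66, -2.23, -2.21 and -2.26 from the lowest class to the highest. By length, 16.8% of the shortest class (201 to 681 bases) and 18.4% of the next fell, but 9.98% of the longest class (1797 to 15573 bases). Within the highest class of level the share was 11.8% for the shortest and 7.27% for the longest. The shares that rose were 0.758%, 0.572%, 1.196% and 0.606% from short to long.

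The falls were found mainly among contigs without a counterpart in the SmedASXL set. A counterpart was taken to be a SmedASXL contig with a total count within 5% and log2 counts correlated at r over 0.99 over the 31 libraries, a rule on counts and not on sequence that uses these same libraries. Of 11901 contigs with such a match, 624 fell (5.24%). Of 11853 contigs without one, 2970 fell (25.1%). A match was found for 627 of 5938 contigs in the lowest class of level and for 4898 of 5939 in the highest, so the classes were taken apart. In the third class 283 of 3964 matched contigs fell (7.14%) and 988 of 1974 unmatched ones (50.1%), and in the highest class 222 of 4898 (4.53%) and 346 of 1041 (33.2%). Matched contigs also fell by less, with a median log2 fold change of -1.30 among those that fell, against -2.41 for the unmatched. None of the 30 contigs without counts in the knock-down had a match. Few counts make an r over 0.99 hard to reach, and these 30 had a median of 45 counts over the 4 controls. In the lowest class of level 10 of the 653 fallen contigs had a match, so the lack of matches among the 30 says little about a counterpart. For the rises the order depended on the level. Over all contigs 1.00% of the matched and 0.565% of the unmatched ones rose, and the matched share was the larger in the 3 lower classes (0.797% against 0.452%, 1.33% against 0.369% and 0.832% against 0.557%). In the highest class, which held 68 of the 186 rises, 49 of 4898 matched contigs (1.00%) and 19 of 1041 unmatched ones (1.83%) rose. A share of 64.0% of the risen contigs had a match, compared with 50.1% of all tested contigs. These are counts of contigs and carry no test.

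**Figure D4:**
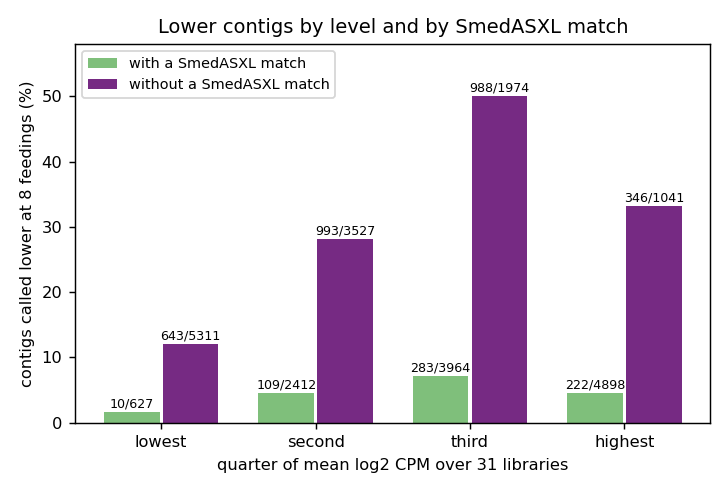
Percentage of tested contigs that fell at 8 feedings (vertical axis, from 0) in 4 equal classes of mean log2 CPM over the 31 libraries, for contigs with (green) and without (purple) a matching SmedASXL contig, with the number fallen over the number tested above each bar. In each class the unmatched contigs fell more often, most of all in the third class, at 50.1% against 7.14%.

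The controls themselves differed in the level of these contigs, and differently in the 4- to 8-fold class and in the tail. Control replicate 1 was the highest control for 1411 of the 1638 contigs that fell 4- to 8-fold (86.1%), against 34.6% of all tested contigs. Its median deviation from the control mean in that class was 0.51 on the log2 scale, and that of control s1 was -0.47. In the tail of 181 contigs control 1 was highest for 26 (14.4%) and lowest for 70 (38.7%, against 20.5% of all tested contigs). Its median deviation there was -0.034, close to 0, and that of control s1 was 0.53. The library named 1 in each group cannot be assigned to a batch, because the meaning of the s in the other names is not given. Within the knock-down, replicate s1 was the lowest for 57.1% of the 3594 fallen contigs and s2 the highest for 47.5%. Among the controls, the library of the same name s1 was also the lowest for 60.9% of them, while s2 was the highest for 8.57%. The median spread of the fallen contigs was 0.427 (SD of log2 CPM) among the controls and 0.395 in the knock-down, compared with 0.349 and 0.220 over all tested contigs. In the knock-down the fallen contigs had a median level of 2.72 CPM, against 6.01 CPM for all tested contigs. Low counts widen the spread on the log2 scale, and their part in it was not tested.

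The comparison was repeated within the libraries named with s. These called 2555 lower contigs (10.8% of 23668 tested) and 127 higher ones (0.537%), of which 2536 and 99 were also called in the comparison of all libraries. The libraries named 1 then served as a separate pair, 1 library against 1, in which contigs are not independent replicates. Of the 2541 lower contigs that could be followed there, 2532 (99.6%) were lower in the knock-down, compared with 43.5% of all tested contigs. Their median log2 difference was -2.89. Control replicate 1 was the highest control for 75.7% of the 3594 fallen contigs, so this median depends on the control in the pair. Of 125 higher contigs that could be followed, 118 (94.4%) were higher, compared with 56.5% of all.

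The rises were fewer, smaller and less stable. Of the 186 risen contigs, 88 rose at least 2-fold and 8 at least 8-fold. Leaving out a single library gave 116 rises without knock-down replicate s1, 99 without s2, 105 without s3, 72 without control replicate 1 and 96 without control s2, and 42 contigs were called higher in all 8 such fits. In the same fits 2876 of the fallen contigs were called lower each time. The risen contigs held 2.16%, 3.44%, 4.31% and 5.29% of the counts in knock-down replicates 1, s1, s2 and s3 and 0.839%, 1.15%, 0.895% and 1.52% in the controls. These contigs were chosen on the same libraries, so the lack of overlap between the groups is a description. A group of 9 risen contigs, between 512 and 1612 bases long, averaged at least 1000 CPM in the knock-down, a cut set after the values were seen. Their summed level was 8711, 18962, 24353 and 31689 CPM in knock-down replicates 1, s1, s2 and s3 and 2401, 5744, 3292 and 6928 CPM in the controls. Replicate 1 was the lowest control for all 9 of these contigs. Their log2 CPM values correlated over the 31 libraries at r = 0.289 to 1.00 with a median of 0.865 (36 pairs), a description in which all pairs share the libraries.

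SmedSXL_014685, 516 bases long, gained the most CPM. It stood at 935 CPM in knock-down replicate 1, 3301 in s1, 4424 in s2 and 6327 in s3, and at 58.9, 719, 197 and 903 CPM in the controls. The groups just fail to overlap, since the highest control at 903 CPM lies close to the lowest knock-down library at 935. The means were 3747 ± 2252 and 470 ± 405 CPM (SD, n = 4 each), a log2 fold change for SmedSXL_014685 of 2.996 (SE 0.980, edgeR adjusted p = 0.0331). The call was lost when knock-down replicate s2 (edgeR adjusted p = 0.0603), knock-down s3 (0.0949), control replicate 1 (0.116) or control s2 (0.110) was left out, and over all alternatives the adjusted p of SmedSXL_014685 ran from 0.000552 to 0.116. At 4 feedings it was not called (953 ± 926 against 1240 ± 571 CPM, SD, n = 4 each, edgeR adjusted p = 1.00), while at 6 and 11 feedings SmedSXL_014685 was called higher (log2 fold changes 3.66 and 3.12, edgeR adjusted p = 0.0272 and 0.0177). 1 further SmedSXL contig followed it at r above 0.99, so the reads of a single transcript may stand on both, and its rise is reported as uncertain.

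The largest fitted rise was that of SmedSXL_022738, a short sequence of 244 bases, and it came from a single library. Knock-down replicate s2 held 366 counts (43.9 CPM), and replicates 1, s1 and s3 held 7, 10 and 4 counts (0.899, 1.27 and 0.530 CPM). The controls held 3, 2, 0 and 1 counts, at most 0.424 CPM. The fitted log2 fold change of SmedSXL_022738 was 5.79 (SE 1.55, edgeR adjusted p = 0.00762). With knock-down replicate s2 left out it was 2.12 (edgeR adjusted p = 0.543), and over the alternatives the adjusted p of this contig ran from 1.14e-05 to 0.543.

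Most of the contigs that fell at 8 feedings were already called lower at 6 feedings, and few at 4. The 3594 contigs that fell at 8 feedings had a median log2 fold change of -0.43 at 4 feedings, -2.07 at 6 and -2.30 at 11, while the median over all tested contigs stayed between -0.02 and 0.16. At 6 feedings 2956 of them were called lower (82.2%, against 13.3% of all tested contigs, or 13.7% called in either direction), at 11 feedings 3254 (90.5%, against 23.4%) and at 4 feedings 89 (2.48%, against 0.375%). The direction at 4 feedings was already below 0 for 95.5% of them, compared with 52.4% of all. The 4-, 6- and 11-feeding libraries shared the fit that called these contigs, and a fit of only the 8 libraries called 4044 contigs lower and 769 higher, with 3087 of the 3594 and 154 of the 186 among them. By their combination of calls, 2686 of the 3594 (74.7%) were lower at 6, 8 and 11 but not at 4 feedings, 479 (13.3%) at 8 and 11 alone and 149 (4.15%) at 8 alone. The 149 had a median control level of 5.14 CPM. Levels in the arms moved unequally. From 4 to 8 feedings the median fallen contig changed by -1.499 on the log2 scale in the knock-down and by 0.0018 in the controls, and the median risen contig by 0.55 and -0.30. Over all tested contigs the medians were 0.110 and 0.096. The levels at 8 feedings also chose the fallen and risen contigs, so their shifts are a description.

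The 181 contigs fitted as over 32-fold lower at 8 feedings had a median log2 fold change of -2.77 at 4 feedings, -4.33 at 6, -6.09 at 8 and -7.62 at 11, with contigs at 0 counts set to their bounds, and of -2.89, -4.33, -6.25 and -7.85 as fitted. For the 1638 contigs that fell 4- to 8-fold the fitted medians were -0.43, -2.23, -2.45 and -2.43. Of the 89 fallen contigs already called at 4 feedings, 60 were among the 181 of the tail and 21 among the 513 that fell 8- to 32-fold. A further 6 were among the 1638 of the 4- to 8-fold class and 2 among the 1027 that fell 2- to 4-fold. Larger folds are called more readily, so this split is a description. In the tail, 181 of 181 contigs were also called lower at 11 feedings, against 23.4% of all tested contigs.

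**Figure D5:**
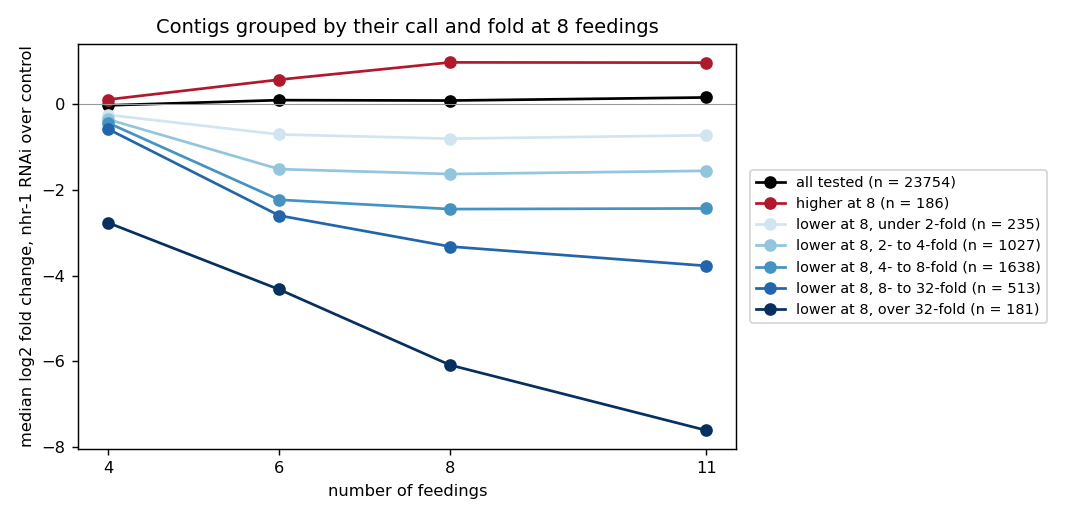
Median log2 fold change of nhr-1 RNAi over control at 4, 6, 8 and 11 feedings for contigs grouped by call and fold at 8 feedings, with contigs at 0 counts in a group set to the bound from 3 counts. The contigs over 32-fold lower at 8 feedings stand at -2.77 at 4 feedings and reach -7.62 at 11, whereas the 4- to 8-fold class starts at -0.43 and stands at -2.45 at 8 feedings.

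The change of the RNAi effect between time points was tested in the same fit. Between 4 and 8 feedings the effect differed for 1260 contigs (5.3% of those tested), and in 1248 of them it was more negative at 8 feedings (5.25%) and in 12 more positive (0.0505%), while 13.1% had an unadjusted p under 0.05. Of the 1248, 1247 belonged to the 3594 fallen contigs, which are 15.1% of all tested contigs. Both calls use the libraries at 8 feedings, so this overlap was largely set in advance. The count was 803 without knock-down replicate 1, 709 without knock-down s1 and 734 without control replicate 1 at 8 feedings, and 621 in the libraries named with s. Between 6 and 8 feedings edgeR's test called 0 contigs, with 216 (0.909%) at an unadjusted p under 0.05, where DESeq2 called 0 and limma 1. Between 8 and 11 feedings edgeR called 0 contigs, with 1711 (7.2%) at an unadjusted p under 0.05, DESeq2 called 4 and limma 0. Of the 186 risen contigs, 122 were called higher at 11 feedings (65.6%, against 7.94% of all) and 37 at 6 feedings (19.9%, against 0.417%). The risen contigs had medians of 0.11 at 4 feedings and 0.58 at 6 on the log2 scale.

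The table of counts also lists 531 individually deposited sequences outside both assemblies. In a fit on all named sequences 493 of them were tested at 8 feedings. Of these, 31 fell (6.29%, against 11.3% of all 45762 tested sequences) and 15 rose (3.04%, against 0.964%). Their fitted log2 fold changes ran from -4.67 to 3.33, and the fallen ones had a median of -1.39, against -2.21 for all fallen sequences of that fit. On the SmedASXL contigs 1790 of 21399 fell (8.36%) and 209 rose (0.977%), with a median of -2.07 among the fallen. Many of these transcripts were also counted on SmedSXL contigs, so the counts are not independent of the main comparison.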

How the data were processed

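The authors deposited 1 table of read counts, all whole numbers, on 177783 named reference sequences, of which 93783 carry the prefix SmedSXL, with their lengths in bases per the file headers. Bowtie2 is named in the submitters' processing notes. Its version, the counting program, the use of strand and the treatment of reads matching several sequences are not stated in the labels used here. A row without a name held 0 counts and was left out. Groups and replicate names came from library titles, and that the knock-down code means nhr-1 came from the descriptions. The control labelled 7 feedings entered no fit, and the number of unused library columns was otherwise 0.

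SmedSXL counts of 31 libraries in 8 groups were tested with edgeR 4.0.16 in R 4.3.3 (TMM, filterByExpr with a minimum count of 10 and total of 15, quasi-likelihood test, 1 mean per group, no covariate), with Benjamini-Hochberg adjustment across the 23754 tested contigs, which held 99.1% of the SmedSXL counts. Standard errors are the log2 fold change over the square root of F. The log2 CPM values used a prior count of 2. DESeq2 1.42.0 and limma 3.58.1 served as alternatives. In counts simulated for the 8-feeding comparison on 22833 tested contigs, the fit recovered 98.5% of 8-fold, 74.6% of 4-fold and 10.4% of 2-fold changes, and 3.17% of its calls were wrong. The simulation gave each contig the spread that is typical of its level, not a spread of its own, and changed only contigs above a minimum mean CPM. At each fold 66 or 67 contigs were changed, far fewer than were called in the data. For these reasons the rates need not hold there. Bounds for contigs at 0 use 3 counts over a group and cover counting error only. Replicates were not copies of one another, since pairs of the same group differed by a chi-square of 3.31 to 60.7 per contig.

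In each direction the contig with the largest difference in mean CPM and the one with the largest fold at 5 CPM or more were named, if called and without overlap between groups. Contigs, classes and comparisons were chosen with earlier results of these data known. Among tested contigs 2.33% shared a total within 5% and r over 0.99 with another SmedSXL contig, so contigs are not genes.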

Additional observations from a re-analysis of the deposited data

Results flagged for a closer look

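SmedSXL_022738 stood at 43.9 CPM in knock-down replicate s2 at 8 feedings, so far above the other 3 knock-down libraries that the gap divided by the range of the group was 0.983. Such a gap was looked for in 29 groups of 4 values, and chance alone would mark about 1 in 20 if values were normally distributed. That rate does not apply to this contig, which was named for its fitted fold, a value that a single high library can raise.

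The effect of nhr-1 RNAi differed between 8 and 4 feedings for 1260 contigs by edgeR's test of the difference between the 2 contrasts. This marks a difference between time points, nearly all of it toward a stronger fall at 8 feedings.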

How the results depend on the processing

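The number of fallen contigs stayed within 1.5 times of 3594 under all 20 alternatives, from 2555 to 5012, and 2167 contigs were called lower under every one of them. The number of rises moved beyond that under RLE size factors (437), library totals alone (88), DESeq2 (818), limma voom (2404) and a fit of only the 8 libraries (769), and leaving out a library gave 72 to 177. No filter gave 128 and the fit on all named sequences 217, and 16 contigs were called higher under every alternative. The cause of these shifts was not tested. Calls in both directions came to 7416 with limma voom, and 3172 to 3755 when a library was left out. RLE factors moved the median log2 fold change of all contigs from 0.09 to 0.22. The count of contigs whose effect differed between 4 and 8 feedings was 802 with library totals alone, 2537 with limma voom and 621 in the libraries named with s, and 709 to 1543 with a library left out. Between 6 and 8 feedings limma voom called 1 contig, and between 8 and 11 feedings 4 were called with no filter, 4 with DESeq2 and 1 in the libraries named with s, where leaving out a library gave 0.

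The difference in detected contigs ran from -438 to 3043 when a library was left out, that in the share of the 10 most abundant contigs from -1.54 to 2.68 percentage points and that of the 100 most abundant from -0.222 to 4.67. None passed the exact permutation test, whose smallest p was 0.0571 (n = 4 and 3, without control replicate s1), and without control replicate s3 the first share differed by -0.0283 percentage points. SmedSXL_022738 was not called with limma voom (log2 fold change 3.82, adjusted p = 0.107).

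Same-named libraries at 8 feedings deviated together at r = 0.00571 to 0.270, over 0.1 in 2 of 4 pairs, so the names were not taken to pair them. A knock-down library correlated best with the control of its own name in 1 of 4 cases, and a control with the knock-down library of its own name in 2 of 4. With a replicate block 3351 contigs were lower, 150 higher and 1082 differed between 4 and 8 feedings, SmedSXL_022738 was not called (log2 fold change 4.04, edgeR adjusted p = 0.161), and a sign-flip test over the pairs gave an exact p of 0.625 for the detected contigs. In the simulation the fit recovered 7 of 67 contigs changed 2-fold (10.4%). It called 126 of 22833 contigs, against 3780 of 23754 in the data, so its cut on the unadjusted p was stricter. The simulated rate therefore does not give the share of 2-fold changes missed in the data. The part of depth in the recovery was not tested.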
